A study of Mus musculus with 7 samples.

Results

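The genes described here are 38 markers of macrophages and other myeloid cells, chosen by name, among them Cd68, Csf1r, Adgre1, Ctss and the C1q chains, with the ligands of the chemokine families left out. All 38 had a probe set annotated to that gene alone on the larger array design, which measured 18193 genes, and 33 had one on the smaller design, which measured 8251 genes. Clec7a, Cd163, Ms4a6d, Tlr2 and Gpnmb are not described for testis. The study dealt with how germ stem cells are lost when mice lack ERM, an ETS-family transcription factor encoded by Etv5. The larger design carried RNA of primary mouse Sertoli cells from ERM knockout mice at 4 weeks, from ERM knockout mice at 10 weeks and from wild-type mice at 4 weeks, and RNA of TM4, a line derived from mouse Sertoli cells, with and without transfection of ERM. The smaller design carried RNA of whole testis from ERM knockout and from wild-type mice at 4 weeks. The labels and protocols used here do not name the strain, the allele, the way Sertoli cells were isolated, any pooling of animals or the construct used for TM4. Each of the 7 groups was 1 array, so no difference had a replicate check, no test across samples was possible and no p-value is given.

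Macrophages derive from myeloid precursors under the control of the ETS factor PU.1, encoded by Spi1, and survive on signals through the CSF1 receptor. They recognise microbes and debris through lectins, scavenger receptors and Fc receptors, and digest what they take up in lysosomes rich in proteases. In the testis macrophages lie in the interstitium and along the peritubular layer, outside the tubules in which Sertoli cells nurse the germ cells. In RNA from bulk samples such as these, fewer cells of a type and less RNA per cell cannot be told apart.

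Intensities were scaled so that each array had a trimmed mean of 500, and log2 ratios were taken with lower values raised to a floor of 100. A gene stands at its brightest probe set. The trimmed means as deposited were 183 to 299 on the larger design and 468 and 477 on the smaller one, and 72.0% to 77.0% and 82.1% to 82.2% of probe sets reached the floor. The precision differed between pairs: the spread of log2 ratios among bright probe sets of the same gene was 0.20 (SD) in the 4-week Sertoli pair, 0.25 between the knockout ages, 0.15 in TM4 and 0.25 in testis. It was 0.18 for the 10-week knockout against wild type at 4 weeks, and widest, at 0.46, for wild-type Sertoli cells against untransfected TM4. This spread is within 1 pair of arrays and holds nothing of the variation between animals or cultures. Etv5 was not lower on the arrays labelled knockout: its brightest probe set read 910.1 in knockout Sertoli cells at 4 weeks and 995 at 10 weeks, against 709.9 in wild type. The part of the gene that was removed is not named in the labels, so these values do not check them. The 5′ control probe set of 18S ribosomal RNA read 4551 on the 4-week knockout Sertoli array, against 352 on the 10-week knockout array and 349 on the wild-type array. Its part in the results below was not tested. Sox9 and Wt1, transcription factors of Sertoli cells, read 3689 to 6439 on the knockout and wild-type Sertoli arrays. Neither was above 150.3 on the TM4 arrays, where Wt1 stayed below the floor.

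In Sertoli cells at 4 weeks, 16 of the 33 measured myeloid genes were at least 2-fold lower in the ERM knockout than in the wild type, against 3.18% of all measured genes, and none was at least 2-fold higher. The lowest ratios belonged to the membrane proteins Ms4a6d and Ms4a4d, at least 9.14-fold and at least 8.83-fold lower, bounds because the knockout read below the floor. The leukocyte tetraspanin Cd53, the lysosomal protease Ctss and the glucan receptor Clec7a were 8.29-fold, 8.12-fold and 7.81-fold lower. Others scarcely differed on their brightest probe sets, among them the mannose receptor Mrc1, the Fc receptor Fcgr1 and the lectin Lgals3. The ratios thus differed from gene to gene. Fcgr1 and Lgals3 also read high in untransfected TM4 cells, at 1488 and 6338, above their wild-type Sertoli values of 256 and 4858. Mrc1 read 63.8 in those TM4 cells and 470.2 in wild-type Sertoli cells. What lay behind the unequal ratios was not tested. On the 10-week knockout array most of the lower genes read between the other Sertoli arrays, which choosing them by the gap between those arrays favours. In whole testis none of the 29 measured genes was past 2-fold in either direction. Among all testis genes 0.852% were lower and 0.532% higher by that margin, so this count is near the share of all genes.

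The promoters of genes at least 4-fold lower at 4 weeks are shown first, with that of Mrc1, which was not lower, for contrast. Ms4a6d and Itgb2, also lower by that margin, had no promoter entry and are not shown. RefSeq promoter entries, which run from 250 bases before the annotated start to 50 bases after it on GRCm38.p6, were found for 29 of the 38 genes, and there was one for Ms4a4d, Cd53, Ctss and Clec7a. They are printed 5′ to 3′ on the strand of the gene, in lower case, and capitals mark AGGAAGT or its reverse complement ACTTCCT, an ETS-type motif of 7 letters searched on both strands. The windows are chr19:11536544-11536843 (plus strand) for Ms4a4d, chr3:106790100-106790399 (minus strand) for Cd53, chr3:95526536-95526835 (plus strand) for Ctss, chr6:129472730-129473029 (minus strand) for Clec7a and chr2:14229164-14229463 (plus strand) for Mrc1.
Ms4a4d: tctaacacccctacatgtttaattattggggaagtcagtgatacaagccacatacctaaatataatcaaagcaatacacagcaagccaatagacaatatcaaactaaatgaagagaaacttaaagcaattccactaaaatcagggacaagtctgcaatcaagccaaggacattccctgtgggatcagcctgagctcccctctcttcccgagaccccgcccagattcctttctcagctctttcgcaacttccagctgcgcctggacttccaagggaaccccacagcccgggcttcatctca
Cd53: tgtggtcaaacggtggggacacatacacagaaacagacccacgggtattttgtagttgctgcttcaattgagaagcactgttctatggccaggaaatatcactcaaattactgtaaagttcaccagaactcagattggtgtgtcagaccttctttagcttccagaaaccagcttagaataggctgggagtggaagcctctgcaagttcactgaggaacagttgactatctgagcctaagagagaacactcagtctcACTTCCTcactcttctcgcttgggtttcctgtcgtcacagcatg
Ctss: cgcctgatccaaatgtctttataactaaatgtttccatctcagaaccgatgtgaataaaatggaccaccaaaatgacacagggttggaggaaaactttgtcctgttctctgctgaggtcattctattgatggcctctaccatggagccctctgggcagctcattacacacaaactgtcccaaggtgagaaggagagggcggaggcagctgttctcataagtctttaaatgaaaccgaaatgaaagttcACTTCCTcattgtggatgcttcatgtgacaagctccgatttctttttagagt
Clec7a: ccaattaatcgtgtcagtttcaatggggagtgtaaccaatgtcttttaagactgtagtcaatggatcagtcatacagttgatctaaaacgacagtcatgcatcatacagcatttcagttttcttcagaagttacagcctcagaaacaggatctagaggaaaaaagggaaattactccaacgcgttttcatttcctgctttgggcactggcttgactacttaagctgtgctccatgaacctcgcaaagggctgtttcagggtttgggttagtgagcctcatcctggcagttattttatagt
Mrc1: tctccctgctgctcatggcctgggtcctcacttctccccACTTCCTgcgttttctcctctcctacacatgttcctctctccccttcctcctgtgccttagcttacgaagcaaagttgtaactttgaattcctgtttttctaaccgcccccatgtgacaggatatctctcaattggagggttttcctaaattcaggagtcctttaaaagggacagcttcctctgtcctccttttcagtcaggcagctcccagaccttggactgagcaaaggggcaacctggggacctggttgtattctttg
The motif lies at the annotated start in Ctss and just after it in Cd53, far upstream in Mrc1, and is not found in the windows of Ms4a4d and Clec7a. It was found for 8 of the 29 genes with an entry (27.6%), which were C1qb, C1qc, Cd53, Ctss, Fcgr1, Lyz2, Mrc1 and Ptprc, against 10.7% of 27025 genes and 9.35% of 32851 promoter entries. Of the genes with the motif 7 were measured in the 4-week Sertoli pair and 4 of these were at least 2-fold lower, and of those without it 17 were measured and 10 were lower. A match in these letters is a description and not a binding site, and the motif was chosen after the values were seen.

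In the 4-week Sertoli pair 33 of the 38 genes reached the floor on at least 1 array. Of these, 27 reached it on both arrays, 6 only on the wild-type array and none only on the knockout array, so the 6 had to read lower. Among the 27 genes read on both arrays 12 were at least 2-fold lower, against 2.82% of the 14805 genes read on both. Over all genes with at least 1 array at the floor, 3.18% of 15860 were lower by that margin and 0.681% were higher. The median log2 ratio of the 33 genes was -0.96 and that of all 15860 genes -0.02. The range ran from -3.19 for Ms4a6d to 0.33 for Marco, with 30 genes below 0 and 3 above.

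**Figure D1:**
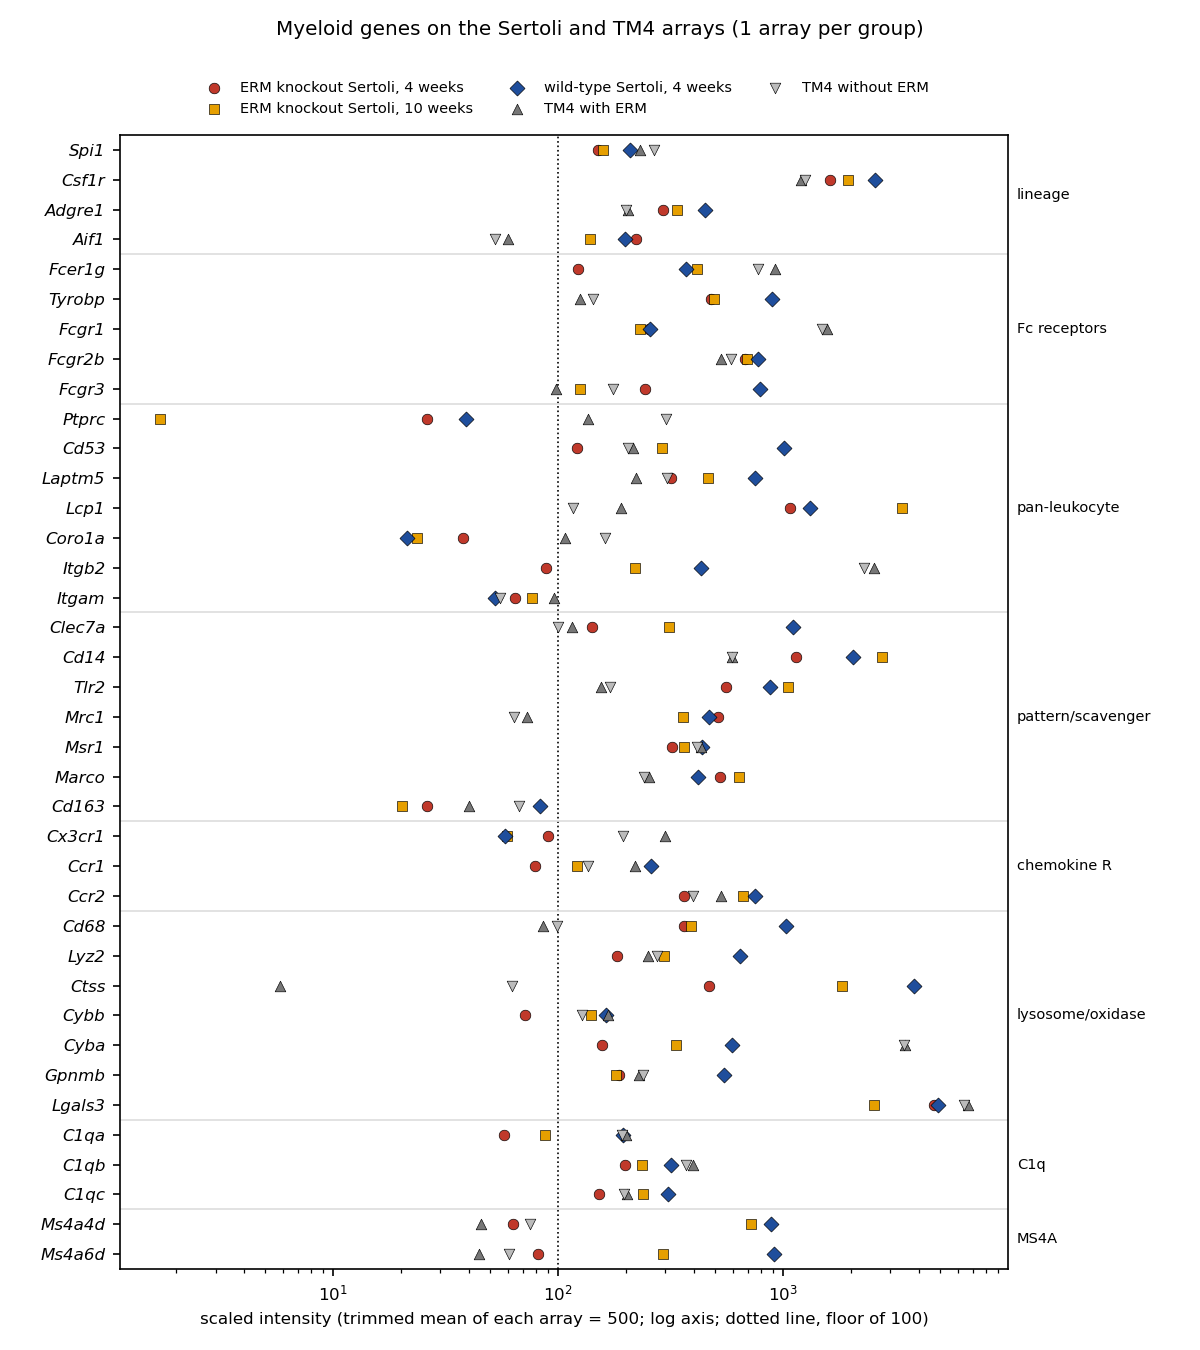
Scaled intensity (log axis) of the 38 genes on the 3 Sertoli and 2 TM4 arrays, 1 point per array, with the floor of 100 as a dotted line. For Ctss, Clec7a, Cd53, Ms4a4d and Ms4a6d the 4-week knockout point lies far to the left of the wild-type point, while for Mrc1, Fcgr1 and Lgals3 they lie together. For some genes, among them Cyba, Itgb2 and Fcgr1, both TM4 points lie above all Sertoli points.

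Genes that define the lineage were within 2-fold in the 4-week Sertoli pair. Csf1r, the receptor for the macrophage growth factor CSF1, read 1617 in knockout and 2561 in wild-type Sertoli cells on its brightest probe set (log2 ratio -0.66). Its other probe sets did not share the difference, with 767 in knockout against 766 in wild type and 704 against 692. Adgre1, which encodes the surface marker F4/80, was at -0.62, Spi1 at -0.48 and Aif1, an actin-binding protein of macrophages, at 0.17. Apart from Csf1r they were dim, between 139 and 451 on the Sertoli arrays. In untransfected TM4 cells Spi1 read 267, above its wild-type Sertoli value of 209. The other Csf1r probe sets read 598 and 852 in those TM4 cells, below and above their wild-type Sertoli values. Adgre1 at 199, Aif1 at 52.2 and the brightest Csf1r probe set at 1247 were lower in TM4 than in wild-type Sertoli cells. How far background signal narrowed these ratios was not tested.

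Lysosomal and oxidase genes held some of the largest differences. Ctss, the protease cathepsin S, read 468 in the knockout at 4 weeks and 1829.7 at 10 weeks, against 3801 in wild type, a ratio 8.12-fold lower at 4 weeks. Cd68, a glycoprotein of macrophage endosomes and lysosomes, read 362 and 388 in the knockout at 4 and 10 weeks, against 1034 in wild type (2.85-fold lower at 4 weeks). Lyz2, the lysozyme of myeloid cells, read 183 and 297, against 643 in wild type (3.52-fold lower). In these 3 genes both knockout arrays were below the wild-type array. Gpnmb, a glycoprotein of lysosome-rich cells, read 187 and 181 in the knockout at 4 and 10 weeks, against 548 in wild type (2.93-fold lower), while its other, dim probe set was at -0.26. Cyba and Cybb encode the membrane subunits of the phagocyte NADPH oxidase. Cyba read 157 in the knockout at 4 weeks and 335 at 10 weeks, against 593 in wild type (3.78-fold lower). Cybb lay below the floor in the 4-week knockout on all 3 of its probe sets, with wild-type values of 164 to 205. Lgals3, a galectin made by many cell types, was nearly equal at 4 weeks, at 4689 in the knockout and 4858 in wild type, and lower at 10 weeks, at 2525.

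Fc receptor genes differed among themselves. Fcer1g, the signalling chain shared by several Fc receptors, read 123 in the knockout at 4 weeks and 416 at 10 weeks, against 372 in wild type (3.02-fold lower at 4 weeks). Only its 4-week knockout value was low. Tyrobp, the related adaptor DAP12, read 476 and 494 in the knockout at 4 and 10 weeks, against 889.7 in wild type (log2 ratio -0.90 at 4 weeks). Fcgr3, a low-affinity IgG receptor, read 242 at 4 weeks and 125 at 10 weeks in the knockout, against 786 in wild type, which is 3.24-fold and 6.30-fold lower. Fcgr1, the high-affinity IgG receptor, was at 253 in the knockout and 256 in wild type at 4 weeks on its brightest probe set. Its other probe set read 34.4 in the knockout, below the floor, and 107 in wild type, so it was at least 1.07-fold lower. Fcgr2b, the inhibitory IgG receptor, shows how the choice of probe set matters. Its brightest probe set read 677 in the knockout and 770.0 in wild type at 4 weeks, whereas 3 others gave log2 ratios of -1.53, -1.72 and -2.05. The brightest probe set also read 589 in untransfected TM4 cells, where the other 3 lay between 134 and 226. With the log2 values of a gene's probe sets averaged, Fcgr2b stood at -1.37.

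**Figure D2:**
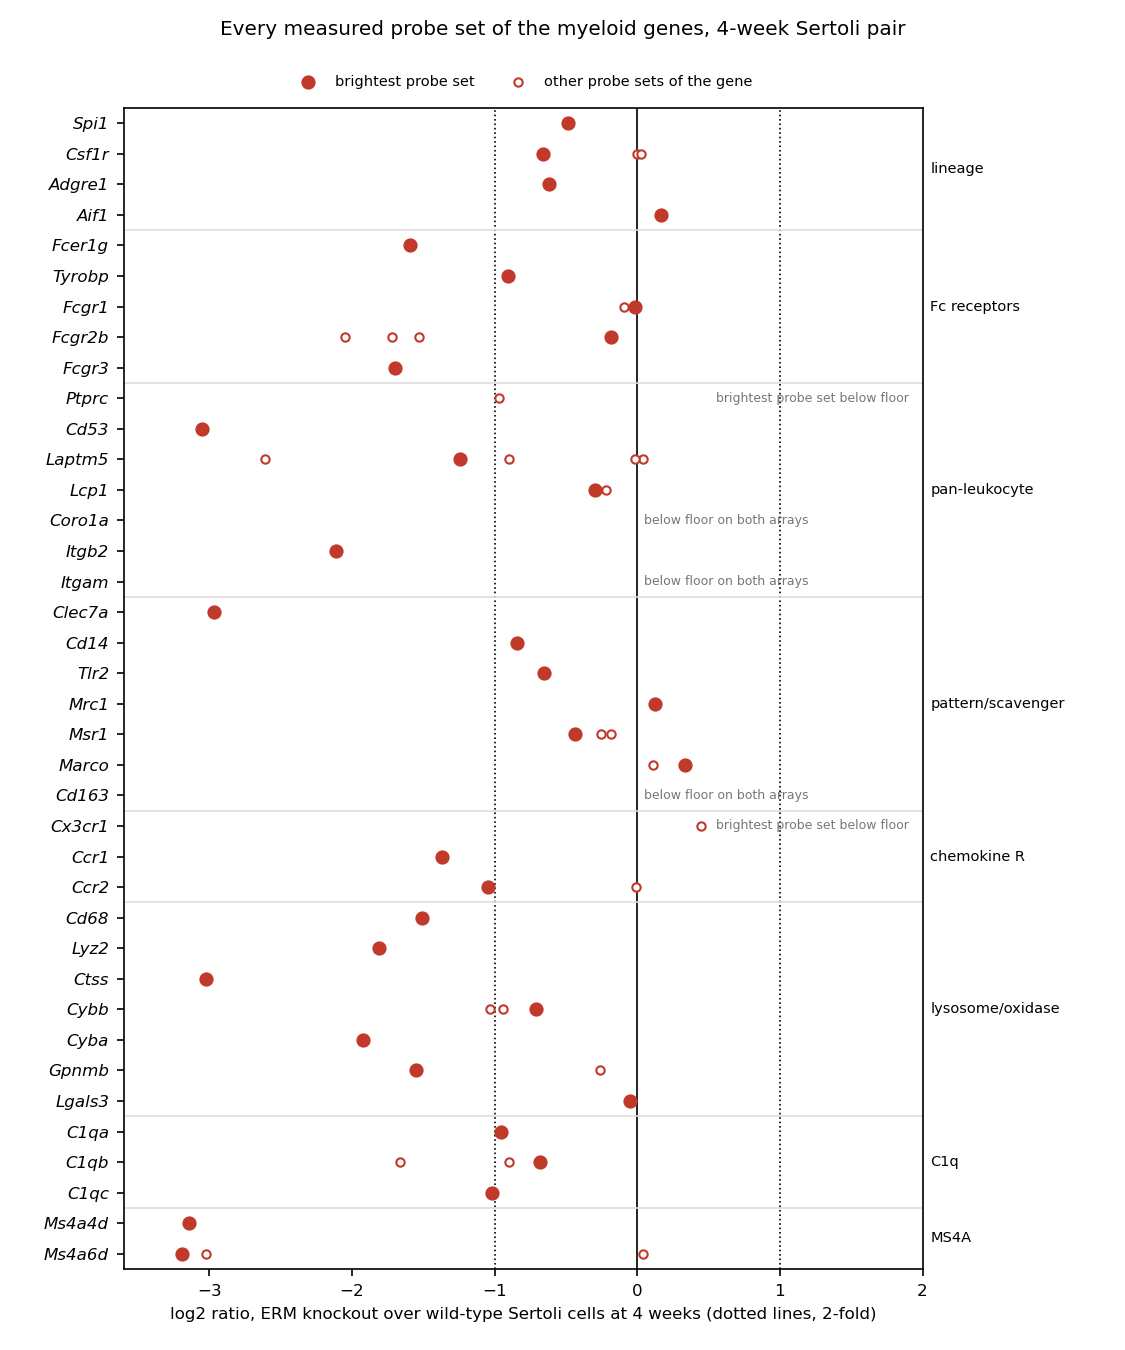
Log2 ratio of ERM knockout over wild-type Sertoli cells at 4 weeks for every probe set of the 38 genes that reached the floor on at least 1 of these arrays, with the brightest probe set of each gene filled and dotted lines at 2-fold. The brightest probe sets of Ms4a6d, Ms4a4d, Cd53, Ctss and Clec7a lie near or beyond -3, and the probe sets of Fcgr2b, Laptm5 and Ms4a6d are split between values near 0 and values well below -1.

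Pan-leukocyte genes were detected unevenly. Cd53 read 121 in the knockout at 4 weeks and 289 at 10 weeks, against 1006 in wild type (8.29-fold lower at 4 weeks). Laptm5, a lysosomal membrane protein of blood cells, read 317 and 465 in the knockout at 4 and 10 weeks, against 751 in wild type (2.37-fold lower), with log2 ratios from -2.61 to 0.04 over its 4 other probe sets. Itgb2, the integrin beta chain of leukocytes, lay at 88.7 in the 4-week knockout and 220.0 at 10 weeks, against 432 in wild type, so it was at least 4.32-fold lower at 4 weeks. Its alpha partner Itgam stayed below the floor on all 5 arrays, with values of 52.6 to 95.6. Coro1a, an actin regulator of leukocytes, lay below the floor on the 3 Sertoli arrays on every one of its probe sets. Ptprc, which encodes the leukocyte antigen CD45, lay below it on its brightest probe set. The other probe set of Ptprc read 41.2 in the knockout at 4 weeks and 132 at 10 weeks, against 196 in wild type. Lcp1, the actin bundler L-plastin, was close at 4 weeks, at 1074 in the knockout and 1317 in wild type.

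Receptors that recognise microbes ranged from nearly equal to strongly lower. Clec7a, which encodes dectin-1, read 142 in the knockout at 4 weeks and 312 at 10 weeks, against 1107 in wild type (7.81-fold lower at 4 weeks). Cd14, a co-receptor for lipopolysaccharide, read 1144 in the knockout and 2049 in wild type at 4 weeks (log2 ratio -0.84), and Tlr2, a receptor for bacterial lipoproteins, 557 and 874 (-0.65). The scavenger receptors Mrc1, Marco and Msr1 stood at 0.13, 0.33 and -0.44. Mrc1 read 513 in the knockout at 4 weeks and 360.2 at 10 weeks, against 470.2 in wild type, and 72.6 and 63.8 in TM4 cells with and without ERM. The knockout and wild-type Sertoli arrays were thus alike for Mrc1, and all were well above TM4. Marco read 527 at 4 weeks and 639 at 10 weeks in the knockout, against 418 in wild type. Cd163, the haemoglobin scavenger receptor, lay below the floor on all 5 arrays.

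Both MS4A genes, whose products span the membrane, went below the floor on the 4-week knockout array. Ms4a4d read 63.2 there and 722 on the 10-week knockout array, against 883 in wild type, and was at least 8.83-fold lower at 4 weeks. Ms4a6d read 81.7 and 293 in the knockout at 4 and 10 weeks, against 914 in wild type, and was at least 9.14-fold lower. A further Ms4a6d probe set gave at least 8.14-fold lower, and its dimmest one, near the floor on every Sertoli array, a log2 ratio of 0.04. The chemokine receptors Ccr1 and Ccr2, through which monocytes are recruited, were lower too. Ccr2 read 364 in the knockout at 4 weeks and 661 at 10 weeks, against 752 in wild type (2.07-fold lower at 4 weeks), and another of its probe sets was at -0.01. Ccr1 lay below the floor at 79.2 at 4 weeks and read 121 at 10 weeks, against 258 in wild type, at least 2.58-fold lower. Cx3cr1, the fractalkine receptor, lay below the floor on the 3 Sertoli arrays on its brightest probe set. Its other probe set, close to the floor, read 142 in the knockout and 104 in wild type at 4 weeks (log2 ratio 0.45). The complement genes C1qa, C1qb and C1qc, whose products form the first component of the classical pathway, had log2 ratios of -0.96, -0.68 and -1.02, the first a bound. C1qc read 152 in the knockout at 4 weeks and 239 at 10 weeks, against 307 in wild type. For C1qb a probe set below the floor in the 4-week knockout, at 317 in wild type, gave at least 3.17-fold lower.

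Of 70 probe sets annotated to the 38 genes, 57 reached the floor in the 4-week pair and 23 of these were at least 2-fold lower, against 2.80% of 28381 probe sets. Of the 12 genes with several measured probe sets, 7 had some but not all probe sets at least 2-fold lower, 5 had none and none had all. Averaging the probe sets of each gene took Laptm5 to -0.95, Ccr2 to -0.53 and Gpnmb to -0.91, inside 2-fold, and C1qb to -1.08, outside it. A floor of 200 in place of 100 took Fcer1g to -0.89, C1qc to -0.62 and Ccr1 to -0.37.

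On the array of knockout Sertoli cells at 10 weeks, 10 genes were at least 2-fold higher than on the array of knockout cells at 4 weeks and none was at least 2-fold lower. These were Ctss, Fcer1g, Cd53, Clec7a, Cd14, Itgb2, Ms4a4d, Ms4a6d, Cyba and Lcp1. With the floor at 200 only 5 of them remained, as Cd53, Clec7a, Itgb2, Ms4a6d and Cyba came within 2-fold. Ms4a4d stood at least 7.22-fold higher, Ctss 3.91-fold, Fcer1g 3.38-fold and Lcp1 3.15-fold. Measured values numbered 32, of which 5 were above the floor only at 10 weeks and 3 of these were among the 10. Among all genes 4.19% were higher by that margin and 3.51% were lower. The median log2 ratio of the 32 genes was 0.38 and that of all genes -0.03. At the lower end Fcgr3 was at -0.96, Lgals3 at -0.89 and Aif1 at -0.68. Between the same arrays 7 of 9 germ cell genes were at least 2-fold lower, with a summed signal of 3928 at 10 weeks and 19964 at 4 weeks, and the summed signal of fibroblast genes was 10588 and 6252. The part of these in the values of the myeloid genes was not tested.

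Set against wild type at 4 weeks, the 10-week knockout array had 9 of 33 genes lower by 2-fold or more and 1 higher, where the shares of all genes were 4.22% and 1.62%. The 9 were Cd68, Lyz2, Ctss, Cd53, Clec7a, Ms4a6d, Fcgr3, Ccr1 and Gpnmb, and the median log2 ratio was -0.43, against -0.03 for all genes. Lcp1 was the higher one, at 3382 in the 10-week knockout and 1317 in wild type (2.57-fold), with 2.40-fold on its other probe set. The comparisons among the 3 Sertoli arrays share arrays, so they are not independent of each other. There was no wild-type array at 10 weeks, so age and genotype cannot be told apart. Of the 16 genes lower at 4 weeks, 13 had a 10-week value between the other arrays, Fcer1g was above wild type, and Fcgr3 and Gpnmb were below the 4-week knockout. The 16 were chosen by the gap between the 4-week knockout and wild-type arrays, which favours a 10-week value inside it. The share over all genes was not computed, so the count of 13 is no result about these genes. Cd14 and Tlr2, within 2-fold at 4 weeks, read 2766 and 1047 in the 10-week knockout, above the wild-type values of 2049 and 874.

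**Figure D3:**
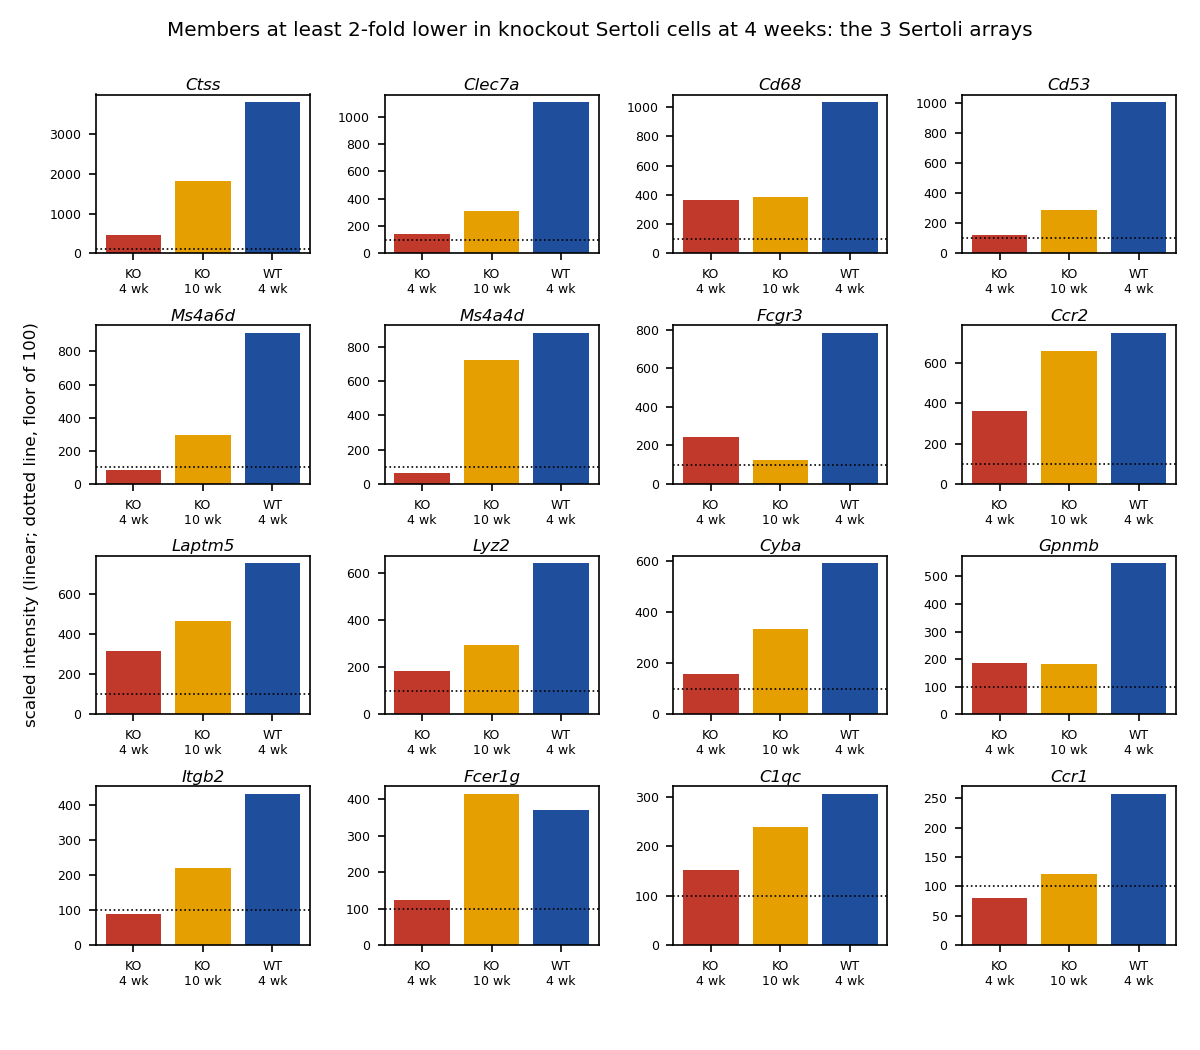
Scaled intensity (linear axes starting at 0) of the 16 genes at least 2-fold lower at 4 weeks, with bars for the ERM knockout at both ages and for wild type at 4 weeks, and the floor of 100 as a dotted line. For 13 genes the 10-week bar lies between the others, from close to the 4-week knockout in Cd68 to close to wild type in Ms4a4d and Ccr2. The genes were chosen by the gap between the 4-week bars, which favours this placing.

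Other gene lists gave a measure of what else differed in the 4-week Sertoli pair. Of 44 measured genes in a list of 51 other myeloid and leukocyte genes, 5 were at least 2-fold lower and none higher, with a median log2 ratio of -0.13. The hyaluronan receptor Cd44 read 1658 in the knockout and 3889 in wild type, and Trem2, a lipid receptor that signals through Tyrobp, 531 and 1171. The others, named after their values were seen because they were dim, were Slc11a1, an ion transporter of phagosomes, and Ncf4 and Evi2a, both below the floor in the knockout. Mpeg1, the pore-forming perforin-2 of macrophages, was singled out after its values were seen: it read 3398 in the knockout at 4 weeks and 5758 at 10 weeks, against 3753 in wild type, and 62.1 and 72.8 in TM4 cells with and without ERM. It was therefore well above TM4 on each Sertoli array and within 2-fold between genotypes at 4 weeks. The 6 measured MHC class II genes were all within 2-fold, with a median of -0.04, and Cd74, the invariant chain, read 1026 in the knockout and 1191 in wild type.

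In lists for other leukocytes the genes at least 2-fold lower numbered 1 of 10 for T cells, 0 of 6 for B cells, 1 of 6 for NK cells, 0 of 9 for neutrophils and 1 of 6 for mast cells. They were Cd3e, Ncr1 and Ms4a2, all below 300 on both arrays and named after their values were seen. The share of all measured genes was 3.18%, and these lists are too short to be set against it. In wild-type Sertoli cells against untransfected TM4, log2 ratios were below 0 for 7 of 8 T cell and 6 of 7 B cell genes. The same held for 4 of 6 NK cell, 5 of 9 neutrophil and 4 of 7 mast cell genes. In the platelet list 1 of 3 was lower, Pf4, a chemokine that platelets store, at 318 in the knockout and 1329.9 in wild type. Of 14 general lysosome genes none was past 2-fold, and the median was 0.05. Among these Ctsz, a further cathepsin, was at -0.69, Grn, the progranulin gene, at -0.63, Hexa at 0.60 and Psap at 0.41. Of the myeloid growth factors Csf3, which acts on granulocytes, read 250.1 in the knockout and 765 in wild type (3.06-fold lower), and Csf1, the ligand of Csf1r, 1149 and 1528.

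Among structural cell types, fibroblast genes were lower beside the myeloid genes, with 3 of 6 at least 2-fold lower (Dcn, Col3a1 and, dim, Col5a1), a median of -0.92 and a summed signal of 6252 in the knockout and 11411 in wild type over the 7 genes with a probe set. Dcn, a collagen-binding proteoglycan, read 3027 in the knockout and 6207 in wild type. Of 13 measured Sertoli cell genes none was at least 2-fold lower, 1 was higher (Espn, which was dim) and the median was 0.30. Their summed signal over 14 genes was 49783 in the knockout and 41511 in wild type, while that of the 38 myeloid genes was 16218 and 30873. Engulfment genes, with which Sertoli cells clear dying germ cells, were within 2-fold for all 10, with a median of 0.40. Of 5 Leydig cell genes 1 was at least 2-fold higher, the steroid enzyme gene Cyp17a1, which was dim, and the median was 0.44. Of 9 germ cell genes 1 was lower, Stra8, a gene of meiotic entry, at 259 in the knockout and 866 in wild type, and 1 was higher, the protamine gene Prm2, at 2955 and 1439, with a median of -0.15. None was past 2-fold among 6 peritubular muscle, 5 endothelial and 2 red blood cell genes, with medians of 0.10, -0.08 and 0.20. The part of these other lists in the values of the myeloid genes was not tested.

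**Figure D4:**
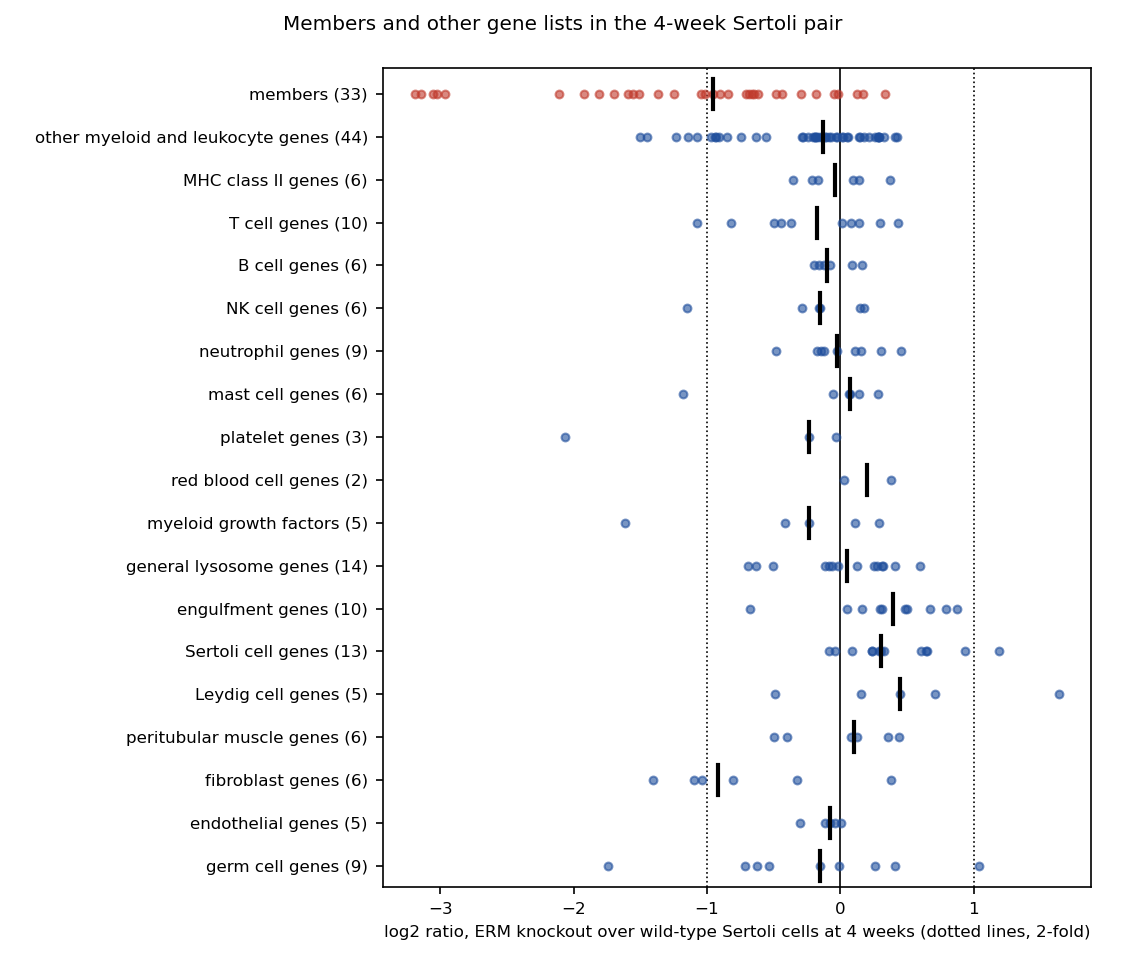
Log2 ratio of ERM knockout over wild-type Sertoli cells at 4 weeks for each measured gene of the 38 (top row, red) and of 18 other lists (blue), with the number measured in brackets, the median as a black bar and dotted lines at 2-fold. The medians of the top row and of the fibroblast row lie near -1, at -0.96 and -0.92, and the other medians lie between -0.24 and 0.44.

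TM4 cells gave a further view of the same probe sets. Etv5 itself read 473 with ERM and 405 without it on its brightest probe set, and 475 against 314 and 211 against 187 on further ones. The construct is not named in the labels, so these values do not check the transfection. On the array with ERM, 0 of 30 measured genes were 2-fold or more above the array without ERM and 1 was as far below it, as were 0.303% and 0.421% of all genes. The gene was Ptprc, at 135 with ERM and 301 without it on a single probe set. The other probe set of Ptprc was below the floor on both TM4 arrays. The median log2 ratio was 0.05, and the next largest differences were -0.81 for Fcgr3, 0.72 for Lcp1 and 0.69 for Ccr1. Several genes of this set read high in TM4. Cyba stood at 3487 with ERM and 3434 without it, Itgb2 at 2527 and 2287, Fcgr1 at 1573 and 1488, and Csf1r at 1204 and 1247.

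Wild-type Sertoli cells had 17 of 36 genes 2-fold or more above untransfected TM4 cells and 5 as far below, where 17.8% and 16.1% of all genes were. The median log2 ratio was 0.95, against -0.08 for all genes. Ctss read 3801 in wild-type Sertoli cells and 62.1 in TM4, a log2 ratio of at least 5.25, and Lcp1 1317 and 116 (11.3-fold higher). Clec7a and Cd68, at 99.8 and 99.3 in TM4, were at least 11.1-fold and 10.3-fold higher. The 5 lower genes were Fcgr1, Cyba, Itgb2, Fcer1g and Ptprc, Cyba by 5.79-fold and Itgb2 by 5.29-fold. The other probe set of Ptprc ran the opposite way, at 196 in wild-type Sertoli cells and 43.9 in TM4 (log2 ratio of at least 0.97). Without the scaling that probe set was the brighter one and Ptprc stood at 1.23. Fcer1g then stood at -0.35, while the median of all genes moved up by 0.68. After scaling, every Sertoli array was above both TM4 arrays for 15 of the 38 genes, and both TM4 arrays were above every Sertoli array for 10. The shares of all genes that separate in this way were not computed, so these counts are no result about the 38 genes. Cyba, Itgb2, Fcgr1 and Fcer1g were among the 10 genes higher in TM4, so for them a high reading was not particular to the primary preparations.

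In whole testis 29 of the 33 genes with a probe set reached the floor, all on both arrays, and none was at least 2-fold apart. In the knockout 0.532% of all genes were higher by 2-fold and 0.852% lower. The median log2 ratio was 0.08, against -0.01 for all genes, with 20 genes above 0 and 9 below. Aif1 had the highest ratio, at 1963 in knockout testis and 1064 in wild type (log2 ratio 0.88). C1qb followed, at 361 in the knockout and 215 in wild type (0.75), then Cd68 at 254 and 152 (0.74), Ctss at 211 and 143 (0.56) and Csf1r at 464 and 323 (0.53). Adgre1 had the lowest ratio, at 199 in the knockout and 250.4 in wild type (-0.33).

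C1qc read 966 in the knockout and 797 in wild type (0.28), a little more than the spread of probe sets in this pair. Several bright genes differed by less than that spread. Msr1 read 859 in the knockout and 935 in wild type, Lgals3 821 and 833, Laptm5 732 and 745, Cd14 671 and 725, and Itgam 537 and 536. A further probe set of C1qb went the other way, at 198 in the knockout and 242 in wild type. Cd53, Fcgr2b, Ccr1 and Marco did not reach the floor in either testis. Of 33 measured genes in the list of other myeloid and leukocyte genes none was past 2-fold, with a median of 0.02, and MHC class II genes had a median of 0.13, with Cd74 at 751 in the knockout and 412 in wild type. The general lysosome genes had a median of 0.34 in testis, and the 2 fibroblast genes past 2-fold, Pdgfra and Dcn, were both higher. Because testis was measured on another array design, its intensities are not set against those of Sertoli cells.

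**Figure D5:**
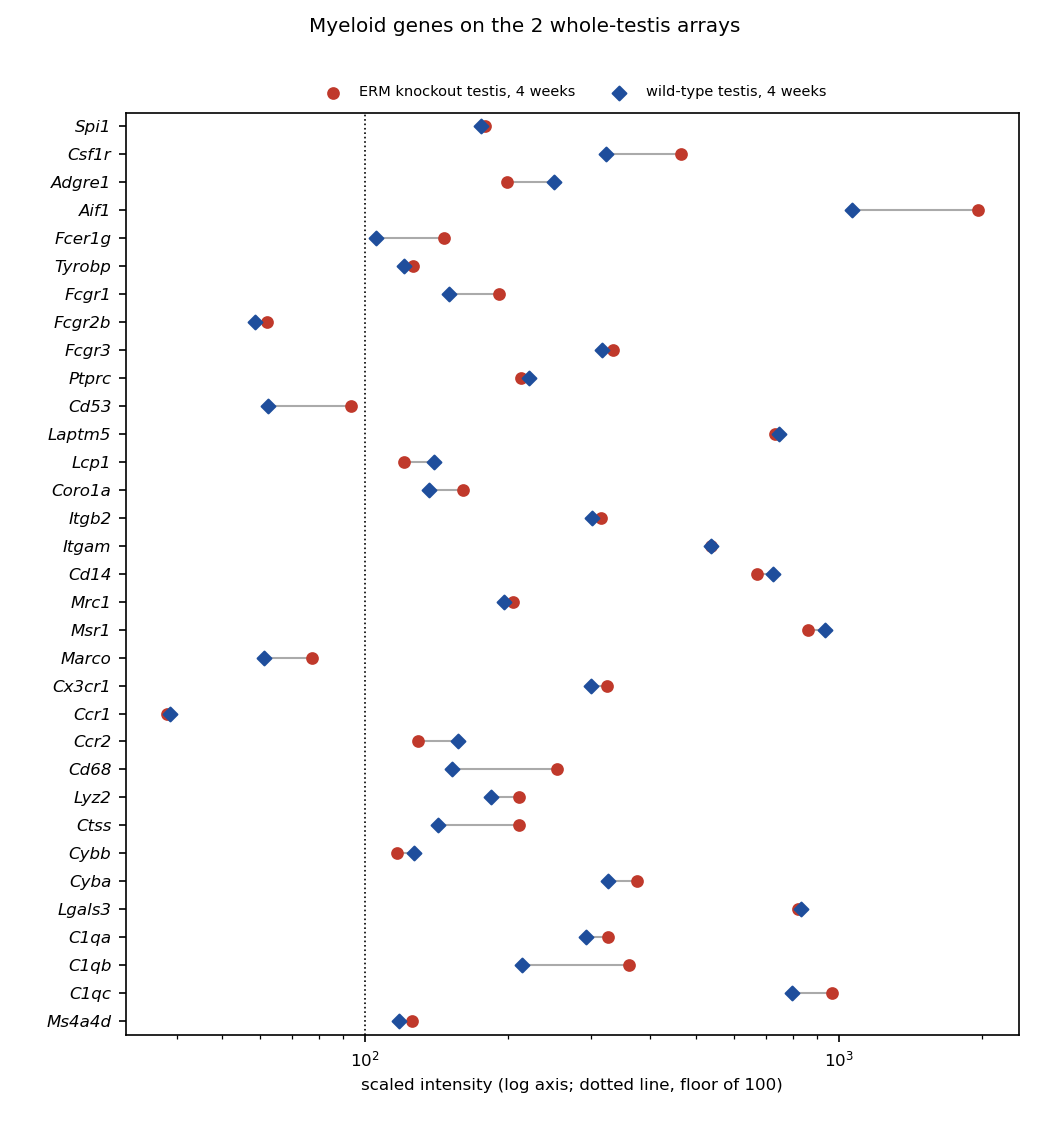
Scaled intensity (log axis) of the 33 genes with a probe set on the testis design, with ERM knockout testis as circles and wild-type testis as diamonds, and the floor of 100 as a dotted line. Most pairs overlap, and the widest gaps above the floor are those of Aif1, C1qb, Cd68 and Ctss, each with the knockout to the right.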

How the data were processed

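Probe set intensity values deposited by the authors were used from 2 tables, of 45101 probe sets for 5 Sertoli and TM4 arrays and 12488 probe sets for 2 testis arrays. They are linear, with software and scaling not given in the sources used here. Those naming a single gene, 34945 and 10833, were kept, and their symbols were those of the platform annotation. Identifiers of 34741 and 10817 matched a RefSeq gene table of GRCm38.p6, which changed no symbol. Each array was scaled to a mean of 500 between the 2nd and 98th percentiles of its non-control probe sets. The floor was 100, and a gene was represented by its probe set with the highest mean over a table's arrays. Where 1 of the arrays did not reach the floor, the ratio is a bound. The 38 genes, the other lists, the 2-fold threshold and the comparisons were chosen with earlier results of these data known. Genes named were the 38, and in each other list up to 4 by size of ratio whose brighter array reached 500; Sox9, Wt1 and genes called dim were named after their values were seen. Steps were tested on simulated data in which only bright genes were changed, so calls on dim genes were not covered. Python 3.11.15, numpy 2.4.6, pandas 2.3.3 and matplotlib 3.10.9 were used. Alternatives changed the scaling, the floor, the choice of probe set and, chosen after the data were seen, the brightness required.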

Additional observations from a re-analysis of the deposited data

Results flagged for a closer look

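Of 25 genes measured in both the testis and the 4-week Sertoli pair, 6 had knockout to wild-type log2 ratios of opposite sign. Each was beyond the spread of bright probe sets within its pair. That spread came from probe sets at or above 500 on both arrays, and in testis all of these genes but C1qc read below 500. Fcer1g was nearest the floor in testis, at 147 in the knockout and 105 in wild type. The spread at such intensities was not computed. The difference between the tissues was not tested, since each ratio rests on 1 array per group and the designs differ. The share of all genes with such opposite signs was not computed, so the count of 6 is no result about these genes. Cd68 had a ratio of 0.74 in testis and -1.51 in Sertoli cells. Ctss stood at 0.56 in testis and -3.02 in Sertoli cells. For Fcer1g the ratios were 0.48 in testis and -1.59 in Sertoli cells. Csf1r was at 0.53 in testis and -0.66 in Sertoli cells, where its other probe sets were near 0. C1qb was at 0.75 in testis, with the opposite sign on its other probe set, and -0.68 in Sertoli cells. C1qc was at 0.28 in testis and -1.02 in Sertoli cells.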

How the results depend on the processing

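No paired analysis was possible because each group held 1 array, and leaving out an array would leave no group. Counts and medians of the myeloid genes under 8 alternatives gave 144 values, of which 131 stayed within 1.5 times the count or within the probe set spread of the pair and 13 moved. The 131 include counts that were 0 and stayed at 0, such as those of testis, so they say little about stability. With genes limited to those whose brighter array reached 500, an alternative added after the data were seen, the median log2 ratio was -1.24 in the 4-week Sertoli pair, 0.86 between the knockout ages, -0.84 for the 10-week knockout against wild type and 1.54 for wild-type Sertoli cells against TM4, and the count of higher genes between the ages was 4. With a floor of 200 that count was 5, and without cross-hybridising probe sets the median between the ages was 0.65. The 1 lower gene in TM4 with ERM, Ptprc, was lost (0 lower) as deposited, with quantile normalization, with the floor of 200 and with the limit on brightness. As deposited, wild-type Sertoli cells against TM4 had 24 genes higher and 3 lower with a median of 1.63, while the median of all genes shifted by 0.68. Ptprc then reversed to 1.23, and to 0.97 with quantile normalization, because its other probe set became the brightest. In the same comparison C1qb, at -0.22, turned to 1.67 without cross-hybridising probe sets. Of 1386 values of single genes 1251 stayed within the spread, 133 moved and the 2 of Ptprc were past 2-fold and changed sign. The cause of the other moves was not tested. The number of arrays limits every value.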
